A study of Mus musculus with 11 samples.

Results

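The enzymes of the methionine cycle and of the transfer of methyl groups were followed in whole mouse livers after induction of YAP. The set was made by symbol, as the rows of the expression table named Mat1a, Mat2a, Gnmt, Bhmt, Cbs, Cth, Ahcy, Sds, Pemt or Nnmt, by no threshold on a measured value, although earlier results of these data were known when the genes were picked. All 10 genes were found among the 20893 rows of the table, and all 10 were among the 14244 genes that reached 0.5 eRPKM in at least 3 libraries and were tested. Livers of C57BL/6 mice were sequenced as bulk RNA in 11 libraries, 1 for each liver listed in the labels. The 4 control livers had the genotype ROSA26-rtTA-IRES-EGFP; WT and had received doxycycline food for 7 days, so that the drug and the rtTA allele were shared with the induced groups. The other livers had the genotype ROSA26-rtTA-IRES-EGFP; tetYAP and were taken after 3 days (4 livers) or 7 days (3 livers) on the same food. By the methods of the study, rtTA is unlocked by Cre under the albumin promoter, which is active in hepatocytes, and drives a YAP S127A transgene, a form of YAP that escapes the Hippo kinases. Ages are not given in the labels, and nothing in them states how litters or cages were spread over the groups.

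Methionine adenosyltransferases join methionine to ATP and so make S-adenosylmethionine, the methyl donor of the cell. Mat1a encodes the enzyme of the adult liver and Mat2a that of most other tissues, and a move from the first to the second is known from dividing and injured liver. After the methyl group is passed on, S-adenosylhomocysteine is split to homocysteine, which is either methylated back to methionine or sent through the transsulfuration pathway to cysteine. These reactions are most active in hepatocytes, where they also feed the synthesis of phosphatidylcholine and glutathione.

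Because several members moved in the same direction, the sequence upstream of their start sites is shown for Gnmt and Cbs, which were lower after 7 days, and for Mat2a, the 1 member with a higher mean. RefSeq windows of 250 bases before the start (build GRCm38.p6) were found for 6 of the 10 genes, namely Ahcy, Mat2a, Pemt, Bhmt, Cbs and Gnmt. All 3 windows are on the minus strand and are written 5′ to 3′, with matches to TATAAA or to CCAAT (or its reverse complement ATTGG) in capitals. They lie at chr17:46729166-46729415 for Gnmt, chr17:31637206-31637455 for Cbs and chr6:72439557-72439806 for Mat2a.
Gnmt: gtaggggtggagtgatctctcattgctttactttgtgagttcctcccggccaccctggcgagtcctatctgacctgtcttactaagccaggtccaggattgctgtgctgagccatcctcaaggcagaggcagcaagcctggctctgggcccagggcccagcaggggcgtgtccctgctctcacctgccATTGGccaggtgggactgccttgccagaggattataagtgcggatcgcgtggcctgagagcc
Cbs: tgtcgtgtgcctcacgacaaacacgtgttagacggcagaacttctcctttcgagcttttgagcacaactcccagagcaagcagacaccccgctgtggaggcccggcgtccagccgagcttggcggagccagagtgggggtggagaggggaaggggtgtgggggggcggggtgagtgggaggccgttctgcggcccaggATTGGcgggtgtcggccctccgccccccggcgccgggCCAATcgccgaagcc
Mat2a: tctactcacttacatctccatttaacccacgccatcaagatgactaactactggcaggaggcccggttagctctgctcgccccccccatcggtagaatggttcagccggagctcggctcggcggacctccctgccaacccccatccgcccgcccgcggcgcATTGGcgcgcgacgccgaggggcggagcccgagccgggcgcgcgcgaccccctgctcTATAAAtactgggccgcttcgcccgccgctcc
The Mat2a window held TATAAA with its first base at position -32 and ATTGG at -89, the Gnmt window held ATTGG at -62, and the Cbs window held CCAAT on one strand or the other at -52 and -15. Over all 32851 such windows, 12.4% held TATAAA and 33.8% held CCAAT on either strand. The TEAD motif GGAATG and the HNF4 motif CAAAGTCCA, searched on both strands, were in none of the members' windows, against 12.6% and 0.384% of all windows, which says only that these letters are not in these 250 bases.

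Values were deposited as eRPKM, in which exonic reads are divided by the length of the gene in kilobases and by the reads of the library in units of 1e6, and changes are given on the log2(eRPKM + 0.5) scale, on which the change of low genes is understated. The reads behind the values could be recovered as whole numbers, and depth differed between the groups: 1289038 to 5670838 reads in controls, 2746582 to 3794700 after 3 days and 5473567 to 6130510 after 7 days. By Xist and Ddx3y, transcripts of the inactive X and of the Y chromosome, 2 of 4 controls, 2 of 4 livers after 3 days and 3 of 3 livers after 7 days were female. The YAP targets Cyr61 and Ctgf followed the labels, with mean levels of 9.43 and 8.69 eRPKM in controls, 39.0 and 24.1 after 3 days and 91.0 and 96.7 after 7 days, while the row for Yap1 itself held 18.2 ± 3.1, 16.8 ± 1.83 and 18.4 ± 0.86 eRPKM (SD, n = 4, 4 and 3). The 8 hepatocyte markers were well detected in every liver, with summed levels of 1714 to 5050 eRPKM in controls and 1371 to 1577 after 7 days.

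The abundant genes had an upper limit that grew far less than depth. The highest gene of a library reached between 1320 and 1549 reads per kilobase, a 1.17-fold range, although depth varied 4.76-fold. Mat1a stood at 60.4% to 93.9% of this highest value in every library. For the 930 genes with a mean of 300 or more reads per kilobase, a class that holds all 10 members, the median slope of the log2 level on log2 depth was -0.25 among the 4 controls alone, and 46.0% of these genes fell in strict order of depth from the shallowest to the deepest control. In the 3 classes of less abundant genes the median slope lay between 0.13 and 0.24. Since the 7-day libraries were among the deepest, the change of each member at 7 days is given as measured, with log2 depth in the fit and against controls 1 and 2 alone. Control 2, with 5670838 reads, is matched in depth to the 7-day livers.

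In control liver the members formed 2 tiers of level per length. Mat1a, Gnmt and Ahcy were highest, at 406 ± 159, 360 ± 146 and 326 ± 132 eRPKM (SD, n = 4), and stood in this order in every control. Cth, Sds, Nnmt, Pemt, Bhmt and Cbs followed at means of 163, 154, 151, 145, 144 and 133 eRPKM. Their order changed from liver to liver, although Cth was above Cbs in every control. Mat2a was lowest at 63.7 ± 10.2 eRPKM. In level averaged over the 11 livers, the members ranked between the 95.6th percentile of all 20893 rows of the table (Mat2a) and the 99.9th (Mat1a).

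**Figure D1:**
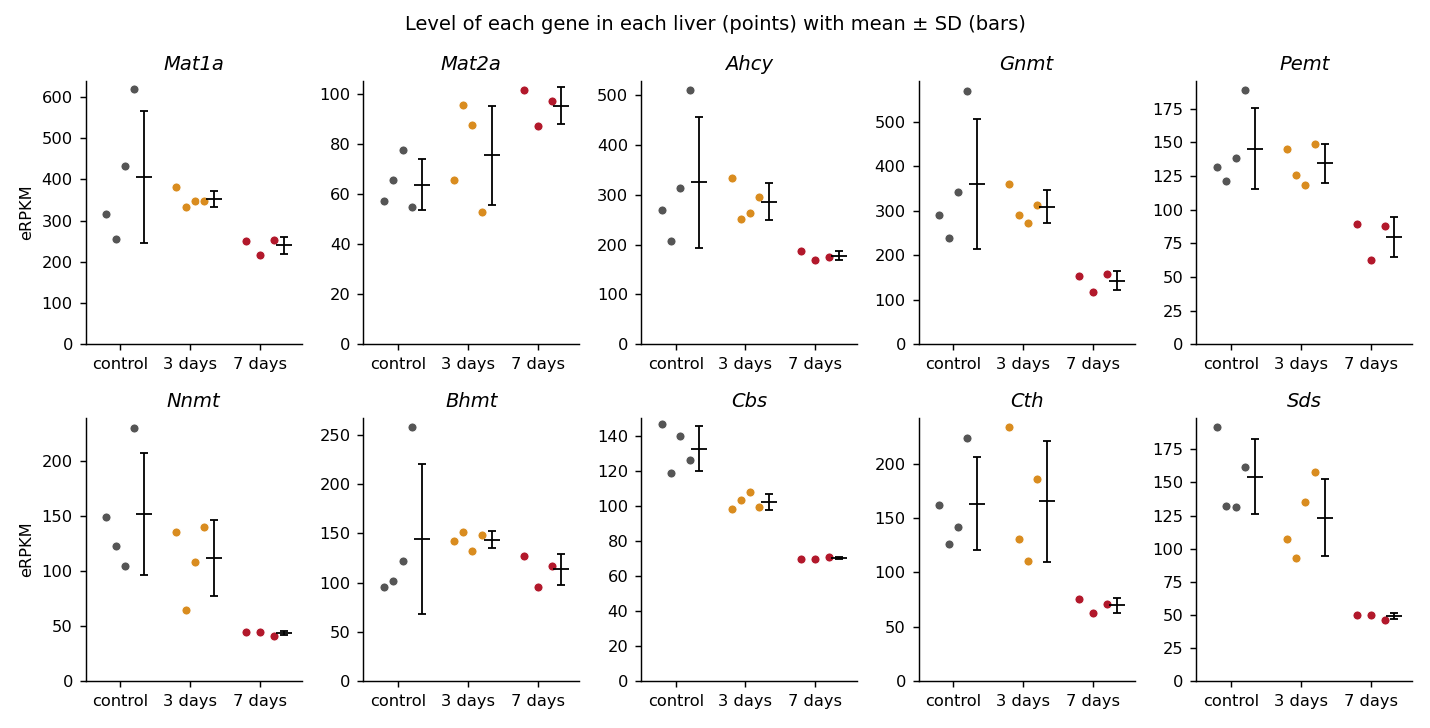
Level of the 10 genes in eRPKM (vertical axes, each from 0) in the 4 control, 4 3-day and 3 7-day livers, with 1 point for each liver and bars for the mean ± SD. After 7 days Sds sat between 46.1 and 50.1 eRPKM and Nnmt between 41.2 and 44.5, below every control and 3-day liver, while Mat2a sat between 87.0 and 101, above every control.

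After 7 days of induction 6 of the 10 members were called lower than in control liver and none was called higher, at an adjusted p under 0.01 and a change of more than 0.5 on the log2 scale. They were Gnmt and the methyltransferases Pemt and Nnmt, both enzymes of transsulfuration, Cbs and Cth, and the serine dehydratase Sds. Of all genes tested 5.77% were called lower and 23.8% were called in either direction, and in the class of abundant genes to which the members belong 27.1% were called lower. The median change of the members was -0.88 on the log2 scale, against 0.26 over all genes tested and -0.48 in the abundant class. With log2 depth in the fit, 3 members (Gnmt, Cbs and Sds) were called lower, where 16.6% of the abundant class was called lower, and against controls 1 and 2 alone 4 were (Gnmt, Cbs, Sds and Nnmt), where 17.4% of the class was. Among the female livers alone 4 were called lower (again Gnmt, Cbs, Sds and Nnmt), where 605 of all 14244 genes were. Leaving out 7-day replicate 2 left 3 calls (Cbs, Sds and Nnmt), where 551 genes were called lower. Leaving out any other liver left 5 to 8, where 2057 to 3684 genes were called in either direction. Across liver tissue as a whole, fewer hepatocytes and less RNA in each hepatocyte cannot be told apart.

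The largest falls were those of Nnmt and Sds, enzymes at the edge of the cycle. Nnmt, nicotinamide N-methyltransferase (chr9:48399982-48413258, minus strand, in the mm9 build), spends S-adenosylmethionine on the methylation of nicotinamide, and Sds (chr5:120926540-120933941, plus strand) turns serine into pyruvate. Nnmt was at 149, 123, 105 and 229 eRPKM in controls 1 to 4, at 136, 64.2, 108 and 139 after 3 days and at 44.2, 44.5 and 41.2 after 7 days. Sds was at 192, 133, 132 and 162 eRPKM in controls, at 107, 92.6, 135 and 158 after 3 days and at 50.1, 50.0 and 46.1 after 7 days. For both genes the 7-day livers lay within a few units of each other and below all other livers. All 7-day livers were female, and in both genes the male controls 1 and 4 were above the female controls 2 and 3. Among the female livers alone both genes were still called lower. Nnmt fell by 1.73 ± 0.29 (SE) on the log2 scale by limma (adjusted p = 0.000522), and Sds fell by 1.64 ± 0.20 (adjusted p = 5.2e-05). The slope of Sds on depth among the controls was only -0.04 and that of Nnmt -0.34. Against control 2, the 7-day mean was 35.3% for Nnmt and 36.8% for Sds, and with log2 depth in the limma fit the change was -1.37 for Nnmt (adjusted p = 0.0121, no longer called) and -1.64 for Sds (adjusted p = 0.000916, called). Against controls 1 and 2 alone it was -1.63 for Nnmt and -1.70 for Sds, both called. Sds shares exonic positions with Plbd2 and Gm15690 on the opposite strand, and reads were aligned without strand, so that reads of these genes cannot be told apart there. Plbd2 moved the other way, from 17.5 ± 5.39 eRPKM in controls to 32.9 ± 4.75 after 7 days.

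Cbs and Cth carry homocysteine to cysteine, Cbs (chr17:31749568-31774144, minus strand, mm9) by joining it to serine and Cth (chr3:157557212-157588041, minus strand) by splitting the product. Cbs was at 147, 119, 140 and 126 eRPKM in controls, at 98.3, 104, 108 and 99.2 after 3 days and at 69.9, 69.8 and 71.0 after 7 days. It was the 1 member in which all 3 groups were apart, with every 3-day liver below every control and every 7-day liver below every 3-day liver. Its spread was small, with a SD of 4.52 after 3 days and 0.68 after 7 days. Cbs fell by 0.91 ± 0.13 on the log2 scale at 7 days (adjusted p = 0.000143 by limma), the slope on depth among controls was -0.01, and the change was the same with log2 depth in the fit (-0.91, adjusted p = 0.000558) and close to it against controls 1 and 2 alone (-0.90, called). Cth was at 162, 127, 142 and 224 eRPKM in controls, at 234, 131, 110 and 186 after 3 days and at 75.9, 62.6 and 70.8 after 7 days. Here the control and 3-day livers were interspersed and the 7-day livers were lower than all of them. Cth fell by 1.19 ± 0.25 (adjusted p = 0.00284 by limma). With log2 depth in the fit the change of Cth was -0.80 (adjusted p = 0.0454 by limma), and against controls 1 and 2 alone it was -1.04 (adjusted p = 0.0234), and neither was called.

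Gnmt and Pemt are methyltransferases through which the liver spends much of its S-adenosylmethionine, Gnmt (chr17:46862613-46866117, minus strand, mm9) by making sarcosine from glycine and Pemt (chr11:59784116-59859991, minus strand) by making phosphatidylcholine from phosphatidylethanolamine. Gnmt was at 290, 238, 342 and 569 eRPKM in controls, at 360, 291, 273 and 314 after 3 days and at 154, 118 and 158 after 7 days. The highest of the controls was the shallowest library, and Gnmt fell in strict order of depth among the controls, with a slope of -0.57. Gnmt fell by 1.26 ± 0.25 on the log2 scale at 7 days (adjusted p = 0.00197 by limma). All 7-day livers were below the depth-matched control 2, of which their mean was 60.2%, and with log2 depth in the fit the change was -0.69 (adjusted p = 0.00276 by limma), still called, as was the -0.88 against controls 1 and 2 alone. Pemt was at 132, 121, 139 and 189 eRPKM in controls, at 145, 126, 119 and 148 after 3 days and at 89.2, 62.3 and 87.6 after 7 days, again with the 7-day livers apart from the rest. It fell by 0.86 ± 0.19 (adjusted p = 0.0032 by limma), and by 0.56 with log2 depth in the fit (adjusted p = 0.0309) and by 0.68 against controls 1 and 2 alone (adjusted p = 0.0211), neither of which was called.

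The methionine adenosyltransferases Mat1a (chr14:41918670-41937701, plus strand, mm9) and Mat2a (chr6:72382793-72389552, minus strand) did not pass the threshold in either direction. Mat1a was at 316, 256, 432 and 619 eRPKM in controls, at 381, 334, 348 and 349 after 3 days and at 251, 217 and 254 after 7 days. The 7-day livers were below all controls, 2 of them by only a few units in the case of control 2. The change was -0.68 ± 0.25 on the log2 scale (adjusted p = 0.0461 by limma). Mat1a fell in strict order of depth among the controls, with a slope of -0.60, the 7-day mean was 93.8% of control 2, and the change was -0.11 with log2 depth in the fit and 0.11 after quantile normalization, where its sign turned. Against controls 1 and 2 alone it was -0.25. Without control 2 it was -0.87 (adjusted p = 0.00845 by limma), which was called. For Mat1a, the induction and the depth of the libraries could not be told apart.

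Mat2a was at 57.2, 65.4, 77.5 and 54.9 eRPKM in controls, at 65.5, 95.4, 87.7 and 52.7 after 3 days and at 101, 87.0 and 97.3 after 7 days. Mat2a was the 1 member in which every 7-day liver was above every control, whereas the 3-day livers overlapped with both other groups. In 8 other members every 7-day liver was below every control, as in 13.3% of all genes tested, and 50.0% of all genes had 7-day and control livers that did not overlap in one direction or the other. These shares were not taken in the abundant class, which holds every member. The change of Mat2a was 0.59 ± 0.20 on the log2 scale (adjusted p = 0.0375 by limma), with log2 depth in the fit it was 0.52, against controls 1 and 2 alone it was 0.63, and after quantile normalization it was 0.90 (adjusted p = 0.00486), which was called. The slope of Mat2a on depth among controls was 0.06, and the 7-day mean was 146% of control 2. All 7-day livers were female, and Mat2a was at 65.4 and 77.5 eRPKM in the female controls and at 57.2 and 54.9 in the male ones. Over the 23 alternatives, female livers alone among them, the change of Mat2a lay between 0.32 and 0.90. A stretch of the Mat2a transcript matches a copy elsewhere in the genome at 95.6% identity, so that the counting of its reads is uncertain.

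The ratio of the 2 genes is given as a description, with no test. Mat2a amounted to 18.1%, 25.5%, 17.9% and 8.88% of Mat1a in controls 1 to 4, to 17.2%, 28.6%, 25.2% and 15.1% after 3 days and to 40.4%, 40.2% and 38.3% after 7 days. The 7-day livers were above all others, and Mat1a was the more abundant transcript in every liver. Among the controls the ratio was lowest in the shallowest and highest in the deepest library, so that 25.5% in control 2 is the closest value to set beside the 38.3% to 40.4% of the 7-day livers. Controls 2 and 3 were female and controls 1 and 4 male, while all 7-day livers were female.

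**Figure D2:**
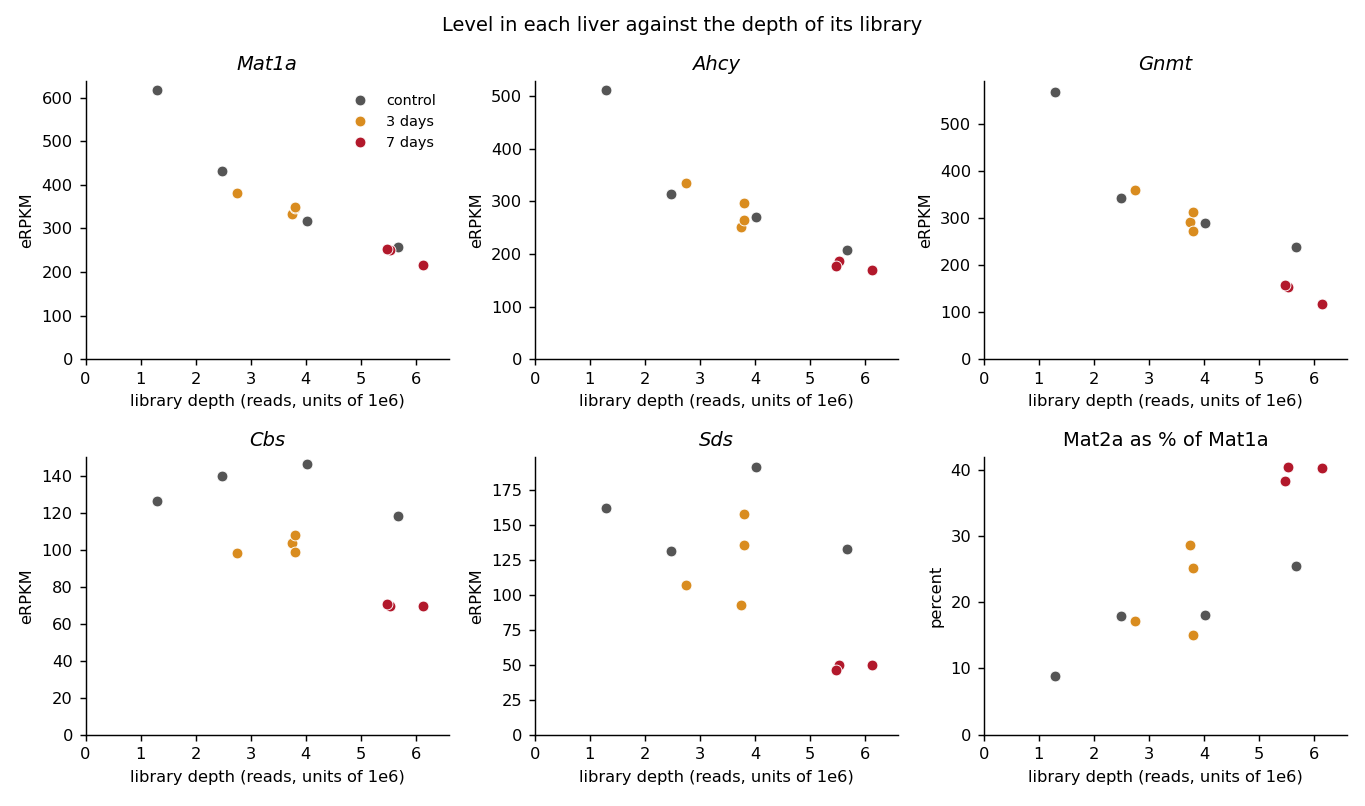
Level in eRPKM of Mat1a, Ahcy, Gnmt, Cbs and Sds, and Mat2a as a percent of Mat1a (vertical axes from 0), against the depth of each library in reads (units of 1e6), with 1 point for each liver coloured by group. Mat1a of the 7-day livers (217 to 254) sat just below the deepest control (256). Sds (46.1 to 50.1) and Cbs (69.8 to 71.0) of these livers sat below the lowest controls (132 and 119). Slopes on depth were taken among the controls only.

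Ahcy and Bhmt, on either side of homocysteine, were not called at 7 days. Ahcy (chr2:154885046-154900233, minus strand, mm9) splits S-adenosylhomocysteine, and Bhmt (chr13:94386846-94407916, minus strand) methylates homocysteine with betaine. Ahcy was at 270, 207, 313 and 512 eRPKM in controls, at 335, 251, 264 and 297 after 3 days and at 187, 170 and 176 after 7 days, with a change of -0.79 ± 0.25 on the log2 scale (adjusted p = 0.0237 by limma). Like Mat1a it fell in strict order of depth among the controls (slope -0.58), with log2 depth in the fit the change was -0.23, and against controls 1 and 2 alone it was -0.41. Without control 2 the change of Ahcy was -0.98 (adjusted p = 0.00507 by limma), which was called. Bhmt was at 95.2, 102, 122 and 258 eRPKM in controls, at 142, 152, 132 and 148 after 3 days and at 127, 95.8 and 117 after 7 days. The groups overlapped, and the single high value came from the shallowest library. The change of Bhmt was -0.23 ± 0.28 (adjusted p = 0.544 by limma), with a change of sign to 0.37 when log2 depth entered the fit, to 0.19 against controls 1 and 2 alone and to 0.31 after quantile normalization. Copies at 99.7% identity to Ahcy and 99.4% to Bhmt lie elsewhere in the genome, and Bhmt also shares exonic positions with Gm15622 on the opposite strand, so that the counting of both genes is uncertain.

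**Figure D3:**
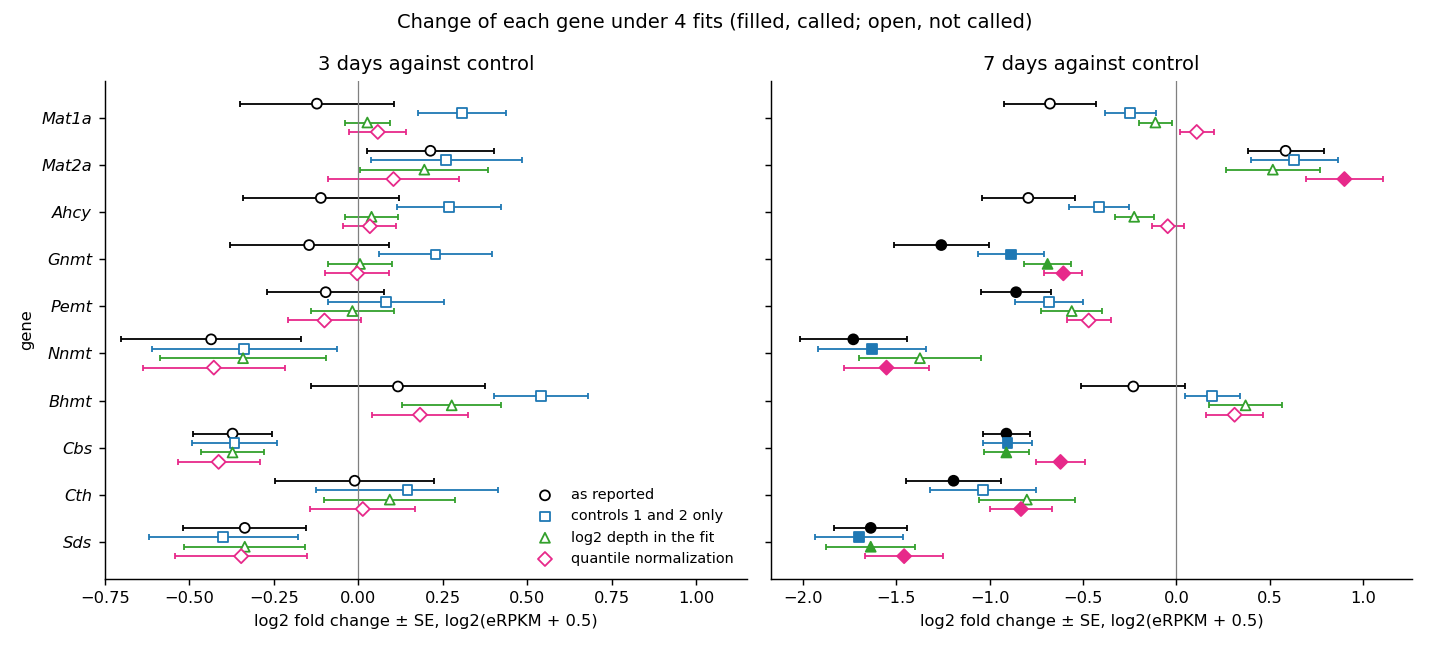
Change of each gene after 3 days (left) and 7 days (right) against control, as log2 fold change ± SE on the log2(eRPKM + 0.5) scale, under 4 fits marked by shape, with filled symbols for calls. Sds, Cbs and Gnmt were filled under all 4 fits at 7 days, Mat1a moved from -0.68 to 0.11 between them, and no symbol was filled at 3 days.

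After 3 days none of the 10 members was called by limma, and of all genes tested 0.0421% were called in either direction. The lowest unadjusted p among the members was that of Cbs, at 0.00732 by limma. Cbs was the 1 member of 10 with an unadjusted p under 0.05, where 1718 of all 14244 genes had one. The median change of the members was -0.12 on the log2 scale, against 0.02 over all genes. Cbs had the largest fall relative to its spread, with a change of -0.37 ± 0.12 (adjusted p = 0.209 by limma). It was the 1 member whose 3-day and control livers did not overlap, where 2.25% of all genes were lower without overlap. By the exact two-sided permutation test over livers Cbs had p = 0.0286, the smallest that 4 against 4 livers can give. Nnmt and Sds had changes of -0.44 and -0.34 on the log2 scale with overlapping livers. Of the remaining members none had a change larger than its standard error, except Mat2a at 0.21 ± 0.19.

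Between 3 and 7 days of induction 6 members were called lower, where 5.31% of all genes were called lower and 19.3% were called in either direction. The changes on the log2 scale were -1.30 ± 0.20 for Sds, -1.29 ± 0.29 for Nnmt, -1.18 ± 0.25 for Cth, -1.11 ± 0.25 for Gnmt, -0.76 ± 0.19 for Pemt and -0.54 ± 0.13 for Cbs. Each of the 6 was also called against control, a comparison that shares the 7-day livers with this one. In 9 of 10 members every 7-day liver was below every 3-day liver, as it was in 13.8% of all genes, and the exception was Mat2a. For this comparison the shares were taken over all genes only, not in the abundant class that holds all 10 members. The median slope of that class on depth was negative among controls, and every 7-day library was deeper than every 3-day library. With log2 depth in the fit 3 members were called, where 588 of all 14244 genes were called lower, and among female livers alone 2 were, where 401 genes were. Leaving out 7-day replicate 1, 2 or 3 or 3-day replicate 4 left 1 member, where 364 to 486 genes were called lower. Leaving out 3-day replicate 1 or 2 left 2 or 3, where 535 or 592 genes were.

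Further enzymes of the pathway were taken as 8 lists of 73 genes, of which 72 were in the table and 71 were tested. At 7 days 7 of the 71 were called higher, where 18.0% of all genes were, and 17 were called lower, where 5.77% of all genes and 27.1% of the abundant class were. The median change of the 71 genes was -0.21 on the log2 scale. Among female livers alone 5 were called higher and 5 lower, with log2 depth in the fit 3 and 12, against controls 1 and 2 alone 3 and 10, and leaving out 1 liver at a time 4 to 9 and 7 to 18, the fewest without 7-day replicate 3 (5 and 7). Of all 14244 genes these fits called 1523 higher and 605 lower, 1098 and 578, 1406 and 579, and 1588 to 2770 and 469 to 914, in the same order. At 3 days none of the 71 was called by limma.

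In the list of serine and glycine enzymes 2 of 10 tested genes were called higher, where 18.0% of all genes were. These were Psat1 and Psph, 2 of the 3 enzymes that make serine, the partner of homocysteine in transsulfuration. Phgdh, the first of the 3, had a change of 0.13 on the log2 scale (adjusted p = 0.837 by limma). Psat1, the aminotransferase of serine synthesis, was between 0.78 and 1.43 eRPKM in controls, between 0.88 and 1.46 after 3 days and at 18.4, 6.02 and 8.22 after 7 days. Only 5 to 15 reads stood behind Psat1 in the control and 3-day libraries, so that its level there is imprecise. Psat1 rose by 2.77 ± 0.34 on the log2 scale (adjusted p = 6.04e-05 by limma). Psph, which completes serine synthesis, rose from 3.82 ± 1.1 to 10.9 ± 1.96 eRPKM. Gcat, which breaks down threonine to glycine, fell from 41.8 ± 3.59 to 13.5 ± 1.07 eRPKM (log2 change -1.60). With Srr and Gcsh it made 3 of 10 tested genes of this list called lower. Over all genes 5.77% were called lower, and in the abundant class 27.1%. Gcat had under 300 reads per kilobase in every library and so lay outside that class. Of the genes with a mean of 100 to 300 reads per kilobase, 12.1% were called lower.

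The polyamine and salvage list, whose members spend S-adenosylmethionine on polyamines or return its sulfur to methionine, had 3 of 9 genes called higher, where 18.0% of all genes were, and 1, Adi1, called lower, where 5.77% of all genes and 27.1% of the abundant class were. Odc1, which makes putrescine, was at 40.8 ± 9.66 eRPKM in controls, 80.3 ± 18.7 after 3 days and 86.8 ± 3.75 after 7 days. Srm, the spermidine synthase, rose from 15.2 ± 2.6 to 48.4 ± 12.7 eRPKM and Enoph1, an enzyme of methionine salvage, from 4.32 ± 1.4 to 11.9 ± 1.22 eRPKM. In the list of S-adenosylmethionine and homocysteine handling Adk, which clears adenosine, was called lower.

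The cysteine and sulfide list had 3 of 7 tested genes called lower and none higher, with a median change of -0.67 on the log2 scale. Of all genes 5.77% were called lower, and of the abundant class, to which Cdo1 and Tst belong, 27.1% were. Csad, of taurine synthesis, was at 147, 76.2, 43.3 and 132 eRPKM in controls, at 128, 65.9, 11.3 and 79.2 after 3 days and at 9.79, 12.5 and 13.0 after 7 days. The 7-day livers were below every control, while 1 liver of the 3-day group was already at their level. Cdo1, which oxidises cysteine, fell from 349 ± 138 to 142 ± 3.24 eRPKM, and Tst, a sulfurtransferase, from 186 ± 42.7 to 97.5 ± 4.8 eRPKM. In the choline phospholipid list Chka, the choline kinase, rose from 5.4 ± 1.08 to 14.3 ± 2.02 eRPKM, while Etnk2, an ethanolamine kinase, fell from 85.6 ± 19.4 to 32.6 ± 2.84, Chpt1 fell from 78.7 ± 20.5 to 30.2 ± 5.93, and Pcyt2 was called lower as well.

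Among 18 folate enzymes and carriers 3 were called lower, where 5.77% of all genes and 27.1% of the abundant class were, and none higher. The carriers Slc25a32 and Slc46a1 fell from 28.7 ± 3.81 to 12.1 ± 1.51 and from 34.6 ± 5.59 to 16.3 ± 2.08 eRPKM. Aldh1l1 was the remaining one. Both carriers had under 300 reads per kilobase in every library and so lay outside the abundant class. Of the genes with a mean of 30 to 100 and of 100 to 300 reads per kilobase, 2.95% and 12.1% were called lower. Of choline oxidation, Sardh and Chdh of 5 genes were called lower, and of the small-molecule methyltransferases Gamt of 6, beside the same shares of 5.77% and 27.1%. Of the called genes given with values from these lists, Psat1, Chka, Gcat, Etnk2, Slc25a32 and Slc46a1 were called both with log2 depth in the fit and against controls 1 and 2 alone. Psph and Cdo1 were called in 1 of these fits, and Csad, Chpt1, Odc1, Srm, Enoph1 and Tst in neither.

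**Figure D4:**
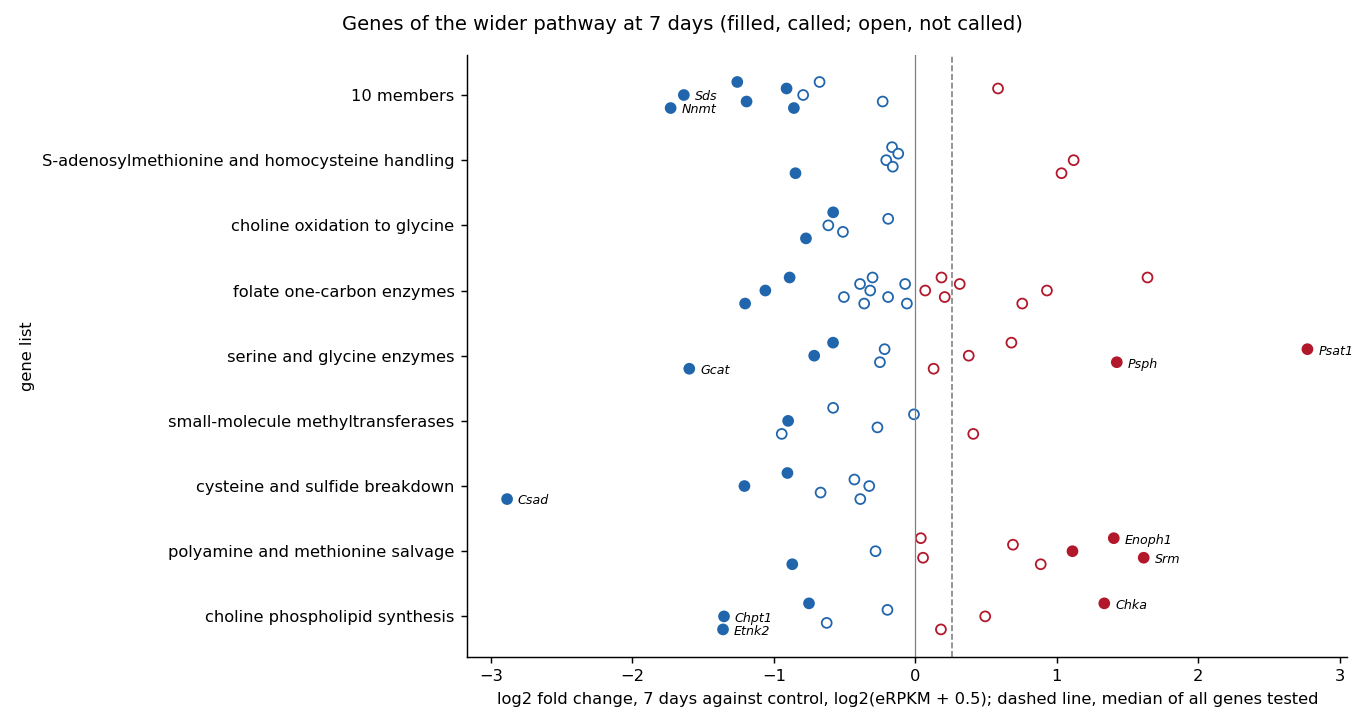
Log2 fold change at 7 days against control (horizontal axis, log2(eRPKM + 0.5) scale) for the 10 members and 70 further genes in 8 lists, 1 point for each gene, filled where called, with the median of all genes tested (0.26) as a dashed line. Psat1 (2.77) and Csad (-2.89) lay farthest from 0.

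Markers of other cells moved in the same livers. Of all genes tested, 18.0% were called higher at 7 days and 5.77% lower, and 27.1% of the abundant class were called lower. After 7 days the summed level of 5 macrophage markers was 651 to 742 eRPKM against 194 to 393 in controls, with 3 of the 5 called higher, and that of 5 biliary markers was 61.5 to 111 against 37.5 to 49.0, with 1 called. The sum of 4 proliferation markers was 89.3 to 138 eRPKM after 7 days against 3.69 to 16.6 in controls, and all 4 were called higher. For the 6 lymphocyte markers the ranges were 4.29 to 10.9 and 4.79 to 9.92 eRPKM, with none called. The sum of 5 stellate cell markers was 97.0 to 106 eRPKM against 143 to 204 in controls, with Reln called lower, and that of 5 endothelial markers was 134 to 171 against 97.6 to 170, with Lyve1 called higher. Of the 8 hepatocyte markers 2, Ttr and Asgr1, were called lower, beside the same shares of 5.77% and 27.1%. The median change of the 8 was -0.85 on the log2 scale, close to the -0.88 of the 10 members. Alb, 1 of these markers, was at 0.99 to 1.48 times the level of Mat1a in every liver, near the upper limit that grew far less than depth. The part of depth in these medians, and of these cell types in the changes of the enzymes, was not tested.

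The genes whose levels were most like those of Mat1a and Mat2a over the 11 livers were taken by Pearson's correlation of the log2 values, among 12569 candidates, as a description. For Mat1a they were Ambp (r = 0.994), Cfb, Atp5b, Ftl1 and Cat, all with a mean of 839 to 994 reads per kilobase, near the upper limit of these libraries. Of the members, Ahcy (0.976) and Gnmt (0.941) were closest to Mat1a, and Cbs (0.652) and Sds (0.662) were the least close of those with a positive value. For Mat2a they were Pnn (r = 0.956), Rnf8, Utp15, Nhlrc3 and Sirt4, and the members most opposed to Mat2a were Nnmt (-0.884), Cth (-0.801) and Sds (-0.800). These livers share their depth and group, so that such values hold both.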

How the data were processed

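Whole livers were homogenised and total RNA was sequenced from TruSeq libraries, 11 in all. By the study's methods and the submitters' processing notes, the authors aligned read pairs to mm9 with TopHat2 2.0.8 without strand and counted reads with featureCounts 1.4.5-p1; the annotation and the treatment of duplicate reads are not given in the sources used here. The deposited eRPKM are RPKM values on exons, which the authors had already divided by library size. The 3 further columns, the authors' own comparison of 7 days with control (a mean, its log2 fold change, its adjusted p-value), were not used.

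Groups came from the labels. The 10 members, the gene lists and the tests were chosen with earlier results of these data known. One limma (3.58.1, R 4.3.3) fit over all 11 livers, with a trended prior, was made on log2(eRPKM + 0.5) for the 14244 genes with at least 0.5 eRPKM in 3 libraries, with Benjamini-Hochberg adjustment over all of them. A gene was called where the adjusted p was under 0.01 and the log2 change exceeded 0.5 in size, the thresholds of the study's methods. Since the labels do not state separate litters or cages, p-values measure the spread between these livers. Exact two-sided permutation tests over livers cannot go below 0.0286 for 4 against 4 or 4 against 3. The fit was tested on simulated data before use.

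Whole reads were recovered from the steps of the eRPKM values, within 0.1 read for 99.97% of the 177553 values above 0, and served for depth, for 1 alternative fit (voom) and for the gene length. Named genes were all members and, from the lists, those called at 7 days with a mean of at least 1 eRPKM, up to 8 in each direction; the remaining called genes are named without values, 1 gene of the lists is counted but not reported here, and Psat1 and Csad are given per liver because they changed most. The TATAAA and CCAAT motifs and the fit against controls 1 and 2 alone were chosen after the values were seen. Near-identical copies were searched with blastn 2.17.0 in the mm9 genome (at least 95% identity over 100 bases), and gene positions are those of GENCODE M1. The replicate numbers of the groups did not pair the livers and no replicate block entered the fit.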

Additional observations from a re-analysis of the deposited data

Results flagged for a closer look

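In 1 of 22 sets examined (each member and the ratio of Mat2a to Mat1a, in controls and after 3 days), a single liver stood apart from the rest of its group: Bhmt in control 4, the shallowest library, where the gap to the nearest liver was 0.836 of the whole range of the group. Chance alone passes Dixon's limit for 4 livers in about 1 of 20 such sets.

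For 6 members the change at 7 days differed from the change at 3 days against the same controls, by the limma test of 7 days against 3 days. In that test 19.3% of all genes were called in either direction and 5.31% were called lower. The difference on the log2 scale was -1.11 for Gnmt, -0.54 for Cbs, -1.18 for Cth, -1.30 for Sds, -0.76 for Pemt and -1.29 for Nnmt. The 7-day libraries were deeper and all female, and the part of depth and sex in these differences was not tested beyond the fits described in the next section.

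For 4 members the 3-day livers of 1 sex lay above the mean of the controls of their sex and those of the other sex below it. The female change minus the male change was 0.38 for Mat1a, 0.43 for Bhmt, 0.49 for Ahcy and 0.97 for Sds on the log2 scale, with 2 livers of each sex in each group. These differences were not tested, and the shallowest control was a male.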

How the results depend on the processing

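Of 690 combinations of a member, a comparison and 1 of 23 alternatives (22 of them planned), 585 kept their direction and side of the threshold, 57 lost a call, 9 gained one and 39 changed sign, none of the 39 at a called value. At 7 days Cbs and Sds were called under every alternative, over ranges of -1.18 to -0.62 and -1.90 to -1.43 on the log2 scale. Voom on the recovered reads called the same number of members as limma in each comparison. Of all genes it called 1 at 3 days, 3748 at 7 days and 3605 for 7 days against 3 days.

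At 7 days, log2 depth in the fit gave 1676 genes and 3 members called, female livers alone 2128 genes, and controls 1 and 2 alone 1985 genes, against 3383 genes and 6 members. For 7 days against 3 days, depth gave 1679 genes and 3 members, and female livers 1424 genes and 2 members, against 2753 and 6. At 3 days, where 1718 genes had an unadjusted p under 0.05, limma called 6 genes, against 3 with no filter, 12 with size factors, 0 with the 2 groups alone or with controls 1 and 2 alone, 1 with depth, 1 with voom and 10 with the label suffix MF as a covariate. Size factors moved the median of all genes at 7 days from 0.26 to 0.03 and quantile normalization to -0.08, and the calls higher and lower from 2561 and 822 to 1951 and 1254 and to 1857 and 1821. Leaving out 1 liver at a time gave 0 to 54 genes at 3 days, 2057 to 3684 at 7 days and 1412 to 3683 for 7 against 3 days, with 3 to 8 members called at 7 days and 1 to 7 for 7 against 3 days. The cause of these shifts was not tested.

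Same-numbered livers of different groups did not deviate together (correlations -0.22 to 0.27, 2 of 10 above 0.1), so the numbers do not pair them, and not every liver was closest to its own number. With a replicate block the calls were 3 genes at 3 days, and 3 members for 7 days against 3 days, where 1981 of all genes were called, 552 of them lower.

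Signs changed as follows on the log2 scale. Quantile normalization gave 0.058 for Mat1a, 0.014 for Cth and 0.034 for Ahcy at 3 days, 0.11 for Mat1a and 0.31 for Bhmt at 7 days, and 0.051 for Mat1a and 0.13 for Bhmt between 3 and 7 days. Female livers alone gave, at 3 days, 0.066 for Mat1a, -0.066 for Mat2a, 0.037 for Gnmt, 0.099 for Cth, 0.14 for Ahcy, 0.15 for Sds, 0.033 for Pemt and 0.11 for Nnmt, and 0.015 for Bhmt at 7 days. Depth in the fit gave 0.027 for Mat1a, 0.0052 for Gnmt, 0.093 for Cth and 0.039 for Ahcy at 3 days, 0.37 for Bhmt at 7 days and 0.094 for Bhmt between 3 and 7 days. Controls 1 and 2 alone gave 0.31 for Mat1a, 0.23 for Gnmt, 0.15 for Cth, 0.27 for Ahcy and 0.082 for Pemt at 3 days and 0.19 for Bhmt at 7 days, and voom gave 0.014 for Cth at 3 days. Leaving out 1 liver at a time gave, at 3 days, -0.32 to 0.11 for Mat1a, -0.32 to 0.10 for Gnmt, -0.039 to 0.44 for Bhmt, -0.20 to 0.16 for Cth, -0.30 to 0.13 for Ahcy and -0.18 to 0.038 for Pemt, and -0.39 to 0.090 for Bhmt at 7 days.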
